A study of Mus musculus with 17 samples.

Results

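Mpp3 and its relatives Mpp1, Mpp2, Mpp4, Mpp5, Mpp6 and Mpp7 are the membrane palmitoylated proteins, here called the MPP genes. All 7 were taken by symbol from a count table of 22253 genes in 17 RNA-seq libraries of retinal pigment epithelium (RPE), the pigmented cell layer behind the photoreceptors. Mpp3 was chosen by the comparison of GFP+ with ctrl center cells in these same libraries, where it is one of the high genes. Its values are therefore a description, with no test in any comparison, and the other 6 genes are here by family name. By the labels, each library was a pool of 10 to 15 hand-picked cells, for which the study's methods give another range. The cells came from C57BL6/J mice of 2 months that carried GFP in 1 copy of Serpine3 (Serpine3GFP/+), and so did every control. There were 6 libraries of peripheral GFP-positive cells (GFP+), 5 of peripheral GFP-negative cells (ctrl periphery) and 6 of central GFP-negative cells (ctrl center), under 7 mouse labels, here mice 1 to 7, of which 5 gave all 3 pools. Mouse 1 is a label with a pair of animal numbers and was taken as 1 pooled source, and GFP marked cells by the promoter of 1 Serpine3 allele.

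The MPP proteins are scaffolds of the membrane-associated guanylate kinase class. They join a PDZ domain, an SH3 domain and an inactive guanylate kinase domain in 1 chain, and most bind further partners through L27 domains. Mpp5, better known as Pals1, links the transmembrane protein Crumbs to Patj at the apical edge of epithelial cells, and with the PAR and Scribble proteins this complex sets where the apical membrane ends and the tight junction begins. In the retina, Mpp3, Mpp4 and Mpp5 are known from the Crumbs complex at the adhesion belt between photoreceptors and Mueller glia, and in RPE the same apical machinery faces the photoreceptor outer segments.

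The libraries held 9896118 to 22467079 counts each. The mitochondrial share of counts was 0.71% to 17.2% in GFP+, 12.5% to 30.4% in ctrl periphery and 13.7% to 47.3% in ctrl center, so it moved with the groups. The ctrl center library of mouse 5 was the extreme, with 47.3% mitochondrial counts and 5392 genes at 10 counts or more against 6430 to 10450 in the other ctrl center libraries. Fitted values said to rest on it are given with and without it. The ctrl center libraries of mice 4 and 7 were also low, with 6681 and 6430 such genes and 32.4% and 37.0% mitochondrial counts. GFP+ libraries had 9089 to 10231 such genes. The part of these differences in counts of 0 was not tested. Levels below are CPM (counts divided by library size in units of 1e6 counts) scaled by the trimmed mean of M-values, and 3 counts in a library, 0.116 to 0.554 CPM, were taken as the floor of detection for counting error only. The RPE genes Rpe65, Rlbp1 and Ttr were at 2144 CPM or more in every library, while Best1 had at most 2 counts. Serpine3 itself had 107 to 576 counts in GFP+, 0 to 5 in ctrl periphery and 0 in ctrl center.

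Most MPP genes were read across the tissue. Mpp2, Mpp5 and Mpp7 were above the floor in 17 of 17 libraries, Mpp1 and Mpp4 in 15, Mpp3 in 10 and Mpp6 in 1. Mpp3 was above the floor in 6 of 6 GFP+ libraries, 4 of 5 ctrl periphery libraries and 0 of 6 ctrl center libraries. None of the other 6 genes had a group in which it was at or under the floor throughout while above it in every library of another.

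**Figure D1:**
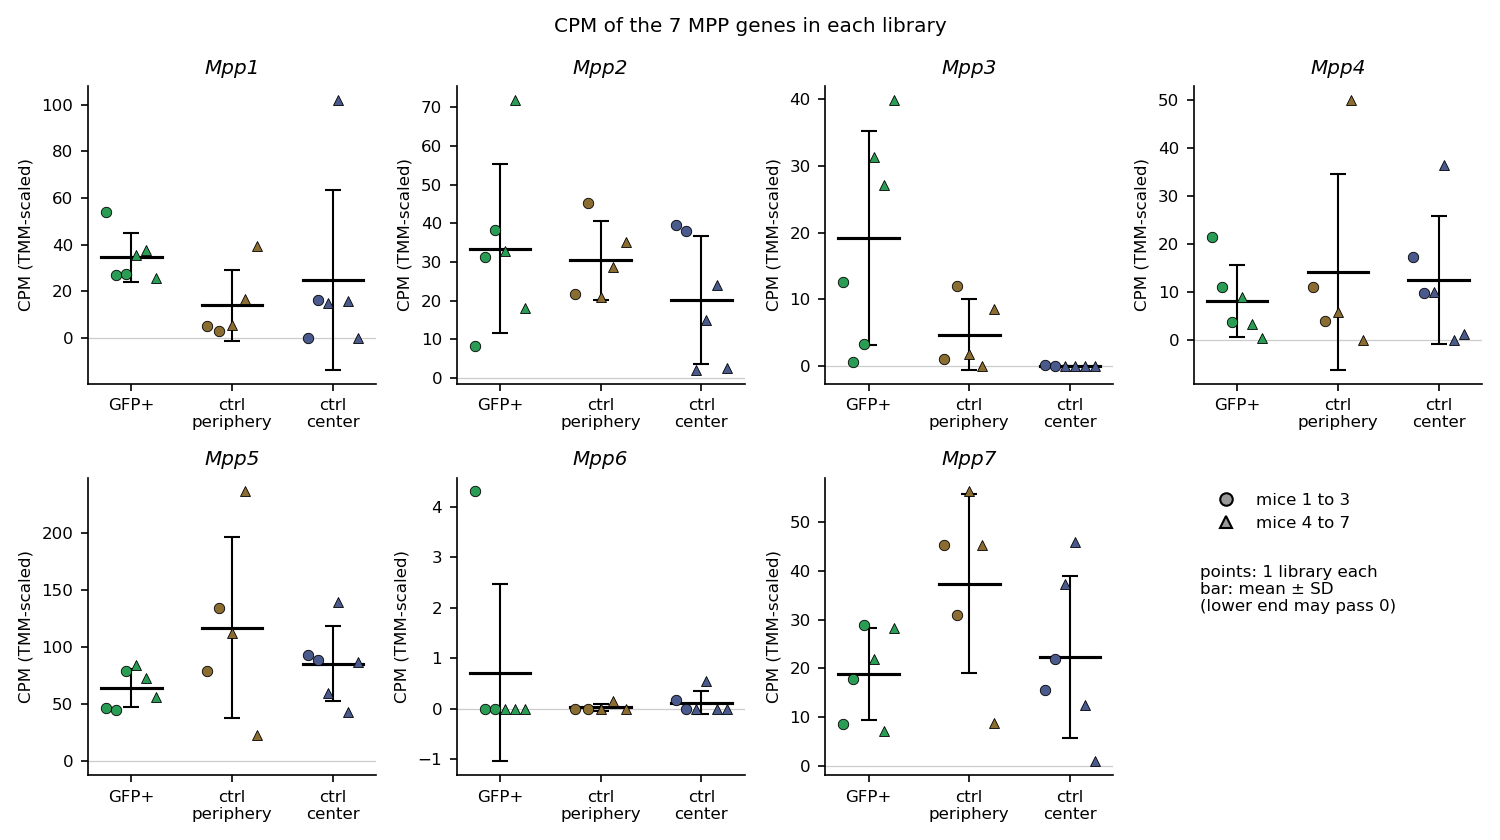
CPM of each MPP gene by group, with 1 point per library (circles mice 1 to 3, triangles mice 4 to 7) and a black bar for the mean ± SD. The 6 ctrl center libraries of Mpp3 all lie at or next to 0, between 0 and 0.168 CPM, below all 6 GFP+ libraries at 0.617 to 40.0 CPM. Mpp6 is also next to 0 in ctrl center, at 0 to 0.554 CPM, but it is at 0 in 5 of 6 GFP+ libraries too.

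Mpp3 codes for a scaffold that can be drawn into the Crumbs complex through Mpp5. In the GRCm38 assembly, used for every position here, it spans bases 101999652 to 102028461 of chromosome 11 on the minus strand. In GFP+, Mpp3 had 326, 13, 74, 415, 385 and 838 counts in mice 1, 2, 3, 4, 5 and 7, or 12.6, 0.617, 3.29, 31.3, 27.1 and 40.0 CPM. In ctrl periphery, it had 20, 233, 39, 0 and 86 counts in mice 1, 2, 4, 5 and 7, or 1.11, 12.1, 1.88, 0 and 8.50 CPM. In ctrl center, the pool of mouse 1 gave 2 counts and the other 5 pools gave 0. The GFP+ and ctrl center ranges did not overlap, whereas the ctrl periphery libraries spanned from the ctrl center level to 12.1 CPM, below 4 of the 6 GFP+ libraries.

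The mean Mpp3 level was 19.2 ± 16.0 CPM (SD, n = 6) in GFP+, 4.71 ± 5.28 CPM (n = 5) in ctrl periphery and 0.0280 ± 0.0687 CPM (n = 6) in ctrl center. With each ctrl center library set to its floor of 3 counts, Mpp3 was at least 62.9-fold higher in GFP+ and at least 15.5-fold higher in ctrl periphery than in ctrl center. Like the floor, these bounds cover counting error only. Leaving out 1 library at a time moved the first bound between 49.2-fold (without GFP+ mouse 7) and 75.2-fold (without ctrl center mouse 5), and the second between 9.43-fold (without ctrl periphery mouse 2, the only library to move it by over 1.5 times) and 19.3-fold. The fitted log2 difference between GFP+ and ctrl periphery was 2.06 (SE 1.28). It was 3.27 (SE 2.04) with the mouse as a block and 1.64 (SE 1.43) with a term for the run of animal numbers described below, and leaving out 1 library moved it between 1.72 and 2.79, the latter without ctrl periphery mouse 2. For Mpp3, as for every gene here, more cells that express it in a pool and more RNA per cell cannot be told apart. Of 9286 genes tested in GFP+ against ctrl center, 0.862% had all GFP+ libraries above all ctrl center libraries, and nothing is read from Mpp3 being among them, since this comparison chose it.

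Within single mice, Mpp3 was higher in the GFP+ pool than in the ctrl center pool in 5 of 5 mice and higher than in the ctrl periphery pool in 4 of 5. Mouse 2 was the exception, with 13 counts in GFP+ and 233 in ctrl periphery. Mouse 5 was its opposite, with 385 counts in GFP+ and 0 in ctrl periphery. Between the peripheral GFP-negative and the central pools, Mpp3 was higher in ctrl periphery in 4 of 5 mice, and both pools of mouse 5 were at 0.

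**Figure D2:**
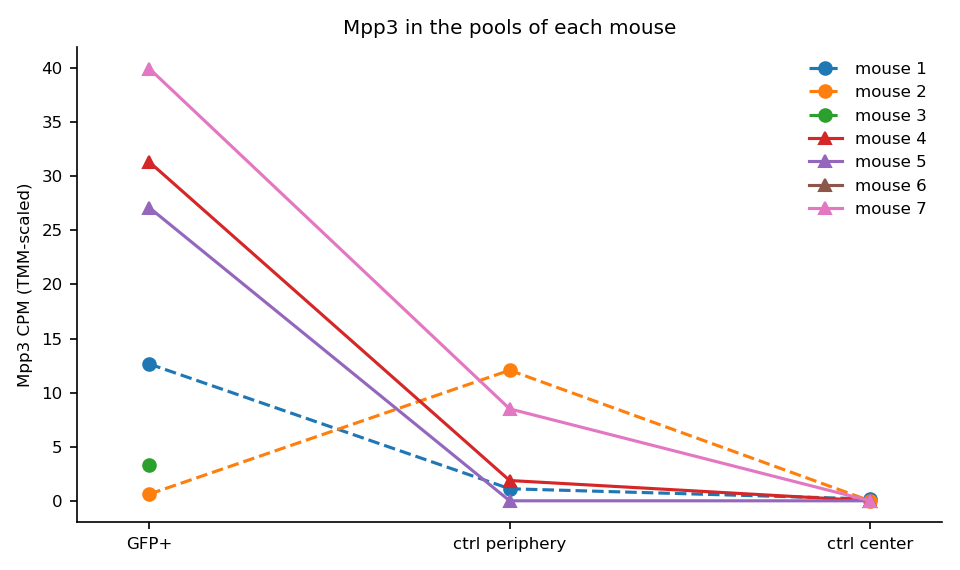
Mpp3 CPM in the pools of each mouse, with lines joining the pools of 1 mouse label (dashed lines and circles mice 1 to 3, solid lines and triangles mice 4 to 7). The GFP+ pools of mice 4, 5 and 7 sit at 27.1 to 40.0 CPM, and the line of mouse 2 is the one that rises from GFP+ (0.617 CPM) to ctrl periphery (12.1 CPM).

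The GFP+ libraries themselves fell apart by animal number. The labels carry 1 run of numbers for mice 1 to 3 and another for mice 4 to 7, and do not say whether these are litters or days. Mpp3 was at 5.52 ± 6.32 CPM (SD, n = 3) in the GFP+ pools of mice 1 to 3 and at 32.8 ± 6.55 CPM (n = 3) in those of mice 4, 5 and 7, a ratio of 5.94. Without mouse 1, the highest of its run, the ratio was 16.8, and without any other of these 6 libraries it was 4.12 to 6.46. The ranges of 0.617 to 12.6 and 27.1 to 40.0 CPM did not overlap, as was so in this direction for 6.14% of the 9286 genes. Serpine3 had its lower mean in mice 4 to 7, at 8.45 CPM against 15.9 CPM in mice 1 to 3 (n = 3 each). Its ranges of 6.20 to 11.6 and 7.78 to 22.3 CPM overlapped, and its highest value lay in the run with less Mpp3. The mitochondrial share moved with Mpp3 here, from 0.71% to 8.49% in mice 1 to 3 and from 8.64% to 17.2% in mice 4 to 7, and its part was not tested.

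Within the runs, the GFP+ and ctrl periphery pools compared differently for Mpp3. Among mice 1 to 3, the means were 5.52 CPM in GFP+ and 6.59 CPM in ctrl periphery (n = 3 and 2), with overlapping ranges. Among mice 4 to 7, they were 32.8 and 3.46 CPM (n = 3 and 3), and the GFP+ range began at 27.1 CPM, above the highest ctrl periphery value of 8.50 CPM. The difference between the runs was not tested, and how many of all genes were so separated within a run was not counted. Against ctrl center, Mpp3 was at least 26.4-fold higher in GFP+ among mice 1 to 3 and at least 93.0-fold higher among mice 4 to 7. The first of these bounds was 9.36-fold without the GFP+ library of mouse 1 and 21.9-fold to 38.2-fold without any other library of that run, and the second 82.8-fold to 115-fold. The ctrl center libraries behind the second bound included those of mice 4, 5 and 7, which had the fewest genes at 10 counts or more. Their part in that bound was not tested.

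Marker lists of other cell types were read beside Mpp3, because Mpp3 is also known from the neural retina. The summed level of the 10 rod and cone markers was 23.7 to 71.2 CPM in GFP+, 31.4 to 66.1 CPM in ctrl periphery and 16.2 to 128 CPM in ctrl center, and so was not higher where Mpp3 was. The 6 inner retina markers did move with Mpp3, at 7.53 to 47.2 CPM in GFP+, 1.78 to 34.7 CPM in ctrl periphery and 0 to 1.70 CPM in ctrl center. Trpm1, a channel of bipolar cells that pigment cells also use, made up this sum in GFP+ with 104 to 1063 counts, whereas Grm6, Pcp2, Calb1 and Slc17a6 had at most 3 counts in any GFP+ library. The 7 Mueller glia markers, several of which RPE expresses, came to 2416 to 3307 CPM in GFP+, 1750 to 3571 CPM in ctrl periphery and 1704 to 3942 CPM in ctrl center, with Slc1a3 and Aqp4 at 0 in GFP+. Of all the marker lists, edgeR called 1 gene, Vim in GFP+ against ctrl periphery, beside 0.0396% of all genes tested there. DESeq2 called Vim there too, beside 0.558% of all genes. In GFP+ against ctrl center, DESeq2 called Dkk3 and Trpm1 higher and Pde6a of the rod and cone list lower, beside 1.54% of all genes. Of these DESeq2 calls, only that of Dkk3 was tried with libraries left out. Vim, an intermediate filament gene, was at 114 to 216 CPM in GFP+, 21.4 to 51.1 CPM in ctrl periphery and 25.3 to 143 CPM in ctrl center. It was called higher in GFP+ than in ctrl periphery (log2 fold change 2.33, SE 0.30, adjusted p = 0.00392 by edgeR's quasi-likelihood test), and not with the mouse as a block (2.24, SE 0.33, adjusted p = 0.0967). Leaving out 1 library gave Vim an adjusted p of 0.00256 to 0.0254, over the limit of 0.01 without any of GFP+ mice 1, 2 and 4 or ctrl periphery mice 1, 2, 5 and 7. Dkk3, the gene of a secreted glycoprotein, had 0 to 718 counts in GFP+, 0 to 160 in ctrl periphery and 0 in ctrl center. DESeq2 called Dkk3 higher in GFP+ than in ctrl center (adjusted p = 0.000625, and 0.0126 without GFP+ mouse 1), where it did not pass the edgeR filter. Of the 6 ciliary and iris markers, 5 had at most 2 counts in GFP+, and Cdh3 alone was read well there, at 13.1 to 260 CPM, against 83.9 to 219 CPM in ctrl periphery and 24.6 to 96.5 CPM in ctrl center. The part of cells that express Trpm1, Vim, Dkk3 or Cdh3 in the Mpp3 level was not tested.

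The 4 markers of melanocytes other than RPE came to 53.2 to 168 CPM in GFP+, 49.0 to 125 CPM in ctrl periphery and 64.0 to 116 CPM in ctrl center. Mlana, a melanosome protein gene of that list, was at 7.04 to 118 CPM in GFP+, 0 to 15.3 CPM in ctrl periphery and 0 to 29.2 CPM in ctrl center. Its log2 fold changes were 2.65 (SE 1.55, adjusted p = 1.00) in GFP+ against ctrl center and 2.31 (SE 1.09, adjusted p = 0.894) against ctrl periphery by edgeR's quasi-likelihood test, and its part was not tested either. Sox10 of the same list was read at 35.2 to 116 CPM over the 3 groups. The 6 endothelial markers came to at most 26.0 CPM in any library, and the 6 of choroid stroma to at most 2.03 CPM in any library. The 6 macrophage markers came to 38.1 to 111 CPM in GFP+, 105 to 146 CPM in ctrl periphery and 68.4 to 116 CPM in ctrl center. Most of that sum was Csf1r, with Aif1, C1qa and Cx3cr1 at no more than 2 counts. Cd68 reached 132 counts in GFP+, 175 in ctrl periphery and 32 in ctrl center, and Ptprc 0, 29 and 0.

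The genes around Mpp3 did not share its pattern. The nearest end of Mpp2 lies 28554 bases away, on the same strand, with Cd300lg between them. Dusp3, a dual-specificity phosphatase gene 12639 bases on the other side, had 203 to 1003 counts in GFP+, 227 to 526 in ctrl periphery and 13 to 381 in ctrl center. Its log2 fold change was -0.24 in GFP+ against ctrl center (edgeR's quasi-likelihood test, Benjamini-Hochberg adjusted p = 1.00). Cd300lg was low, with 0 to 3 counts in GFP+, 2 to 13 in ctrl periphery and 6 to 16 in ctrl center, the opposite order to Mpp3. It did not pass the filter in any comparison. Sost, Cfap97d1, Ppy and Pyy had at most 3 counts in any library. Mpp3 shared 2 of its 9404 31-base stretches of exon sequence with another MPP gene, Mpp6, and 2.40% with other genes of the table.

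Mpp5 (Pals1) is the Crumbs-binding member of the family, on chromosome 12 (78748907 to 78840714, plus strand). It was the leading MPP gene in 12 of 17 libraries when levels were set per kilobase of the longest annotated transcript, and Mpp1 led in 4 and Mpp2 in 1. With the length of all exons merged, Mpp5 led in 11. In GFP+, Mpp5 was at 46.9, 45.4, 79.5, 84.7, 73.6 and 57.0 CPM in mice 1, 2, 3, 4, 5 and 7. In ctrl periphery, it was at 79.3, 135, 113, 237 and 23.2 CPM in mice 1, 2, 4, 5 and 7, and in ctrl center at 93.6, 89.1, 60.0, 140, 43.6 and 87.5 CPM in mice 1, 2, 4, 5, 6 and 7. The GFP+ pools kept to a narrow band that lay inside the range of both control groups.

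The log2 fold change of Mpp5 was -0.86 (SE 0.43) in GFP+ against ctrl periphery, with an adjusted p of 0.910 by edgeR's quasi-likelihood test. It was lower in the GFP+ pool in 4 of 5 mice, mouse 7 being the exception, and also in 4 of 5 mice against ctrl center, where the log2 fold change was -0.52 (SE 0.40, adjusted p = 1.00 in the same test). In ctrl periphery against ctrl center it was 0.37 (SE 0.51, adjusted p = 1.00).

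Mpp1, the p55 protein that ties protein 4.1 to glycophorin C under the red cell membrane, lies on chromosome X (75109733 to 75131016, minus strand). An exon of Dkc1 overlaps it on the opposite strand, and since the use of strand in counting is not given, reads there cannot be told apart. In GFP+, Mpp1 was at 53.9, 27.1, 27.6, 35.5, 37.6 and 25.9 CPM in mice 1, 2, 3, 4, 5 and 7. In ctrl periphery, it was at 5.29, 2.95, 5.78, 16.9 and 39.6 CPM in mice 1, 2, 4, 5 and 7. In ctrl center, it had no count in mice 1 and 7, 15.3 to 16.5 CPM in mice 2, 4 and 6, and 102 CPM in mouse 5. Mpp1 was thus even across the GFP+ pools, with an SD of 30.7% of the mean against 108% in ctrl periphery and 154% in ctrl center, and 1 library of each control group lay above at least 5 of the 6 GFP+ libraries. The 154% includes mouse 5 and was not computed without it. A lower share in GFP+ was not particular to Mpp1. Mpp5 had 26.3% in GFP+ against 67.3% in ctrl periphery and 38.5% in ctrl center, and Cadm4 26.4% against 112% and 97.0%. Mpp2 went the other way against ctrl periphery, at 65.3% and 33.2%.

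The log2 fold change of Mpp1 was 1.32 (SE 0.67) in GFP+ against ctrl periphery, higher in the GFP+ pool in 4 of 5 mice, with an adjusted p of 0.912 by edgeR's quasi-likelihood test. With the mouse as a block it was 2.05 (SE 0.85, unadjusted p = 0.0376, adjusted p = 0.734 in the same test). It was 2.15 without ctrl periphery mouse 7, the pool at 39.6 CPM. Against ctrl center it was 0.28 (SE 1.20, adjusted p = 1.00), also higher in 4 of 5 mice, 1.87 without the ctrl center library of mouse 5, and 2.69 (SE 2.27) with the block. Among mice 1 to 3, the GFP+ pools at 27.1 to 53.9 CPM were above the ctrl periphery pools at 2.95 to 5.29 CPM and the ctrl center pools at 0 to 16.5 CPM. Among mice 4 to 7, both ranges overlapped. Separate ranges among mice 1 to 3 were not particular to Mpp1. There, Mpp5 was lower in GFP+ (45.4 to 79.5 CPM) than in ctrl center (89.1 to 93.6 CPM). Mpp7 was lower in GFP+ (8.50 to 28.9 CPM) than in ctrl periphery (31.04 to 45.4 CPM). With 3 libraries against 2, how many of all genes were so separated was not counted. In ctrl periphery against ctrl center the log2 fold change of Mpp1 was -0.96 (SE 1.51, adjusted p = 1.00), and it was 0.58 without ctrl center mouse 5.

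Mpp7, which joins Dlg1 and Lin7 in a complex that helps tight junctions form, lies on chromosome 18 (7347959 to 7626866, minus strand). In GFP+, it was at 8.50, 17.8, 28.9, 21.97, 7.18 and 28.4 CPM in mice 1, 2, 3, 4, 5 and 7. In ctrl periphery, it was at 45.4, 31.04, 56.5, 45.4 and 8.70 CPM in mice 1, 2, 4, 5 and 7, so that 4 of 5 pools were above every GFP+ pool and mouse 7 was below 4 of the 6 GFP+ pools. In ctrl center, Mpp7 ran from 0.887 to 46.0 CPM with a median of 18.8 CPM. The log2 fold change was -0.97 (SE 0.58) in GFP+ against ctrl periphery, where Mpp7 was lower in the GFP+ pool in 4 of 5 mice, with an adjusted p of 0.996 by edgeR's quasi-likelihood test. It was -0.35 (SE 0.88, adjusted p = 1.00) against ctrl center, and 0.65 (SE 0.89, adjusted p = 1.00) in ctrl periphery against ctrl center.

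Mpp2, a scaffold of synapses and cell contacts that binds nectin-like adhesion molecules, lies on chromosome 11 (102057015 to 102088515, minus strand). It was at 8.23 to 71.9 CPM in GFP+ with a median of 32.0 CPM, at 20.99 to 45.2 CPM in ctrl periphery with a median of 28.8 CPM, and at 2.09 to 39.6 CPM in ctrl center with a median of 19.6 CPM. The 3 groups overlapped throughout. Its log2 fold changes of 0.64 (SE 0.84) in GFP+ against ctrl center and 0.16 (SE 0.52) against ctrl periphery were smaller than their errors.

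Mpp4, best known as a scaffold of photoreceptor synapses, lies on chromosome 1 (59120935 to 59163389, minus strand). For Mpp4, 6.10% of 31-base stretches were shared with other genes of the table, the most of any MPP gene, and counting could split those reads. It was at 0.429 to 21.4 CPM in GFP+, 0 to 50.2 CPM in ctrl periphery and 0 to 36.6 CPM in ctrl center, and the highest library of both control groups was that of mouse 5. The log2 fold change was -0.78 (SE 1.35) in GFP+ against ctrl center and -0.83 (SE 1.27) against ctrl periphery. Both turned positive when the mouse 5 library of the control group was left out, at 0.03 and 0.69.

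Mpp6 (Pals2), a partner of Lin7, lies on chromosome 6 (50110241 to 50198939, plus strand) and was hardly read. It had 111 counts in the GFP+ library of mouse 1, at most 3 counts in any other library and 0 in 13 of 17. It did not pass the filter on low counts in any comparison and got no test.

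Over the family, 0 of the 5 genes tested besides Mpp3 (Mpp1, Mpp2, Mpp4, Mpp5 and Mpp7) were called in any comparison by edgeR's quasi-likelihood test, where a call needed a log2 fold change past 1 in either direction and a Benjamini-Hochberg adjusted p under 0.01. Of all genes tested, 0.0431% were called in GFP+ against ctrl center, 0.0396% in GFP+ against ctrl periphery and 0% in ctrl periphery against ctrl center. At an unadjusted p under 0.05 the count was also 0 of 5 in each, and with the mouse as a block it was 1 of 5 in GFP+ against ctrl periphery (Mpp1) and 0 of 5 in the others. DESeq2 called 0 of these genes as well, where it called 1.54%, 0.558% and 0.259% of all genes in the same order. No MPP gene other than Mpp3 had groups with separate ranges in any comparison. Among all genes, 0.269% were separate and lower in GFP+ than in ctrl center, 0.624% higher and 0.663% lower in GFP+ than in ctrl periphery, and 0.640% higher and 0.115% lower in ctrl periphery than in ctrl center. The SE of the 5 genes was 0.40 to 1.59 on the log2 scale, and the missing calls do not show equal levels.

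The median log2 fold change of the 5 genes was -0.35 in GFP+ against ctrl center, -0.83 in GFP+ against ctrl periphery and 0.37 in ctrl periphery against ctrl center, beside medians of 0.00, 0.01 and 0.01 over all genes. The first pair of comparisons share their GFP+ libraries, and each control group enters a second comparison.

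**Figure D3:**
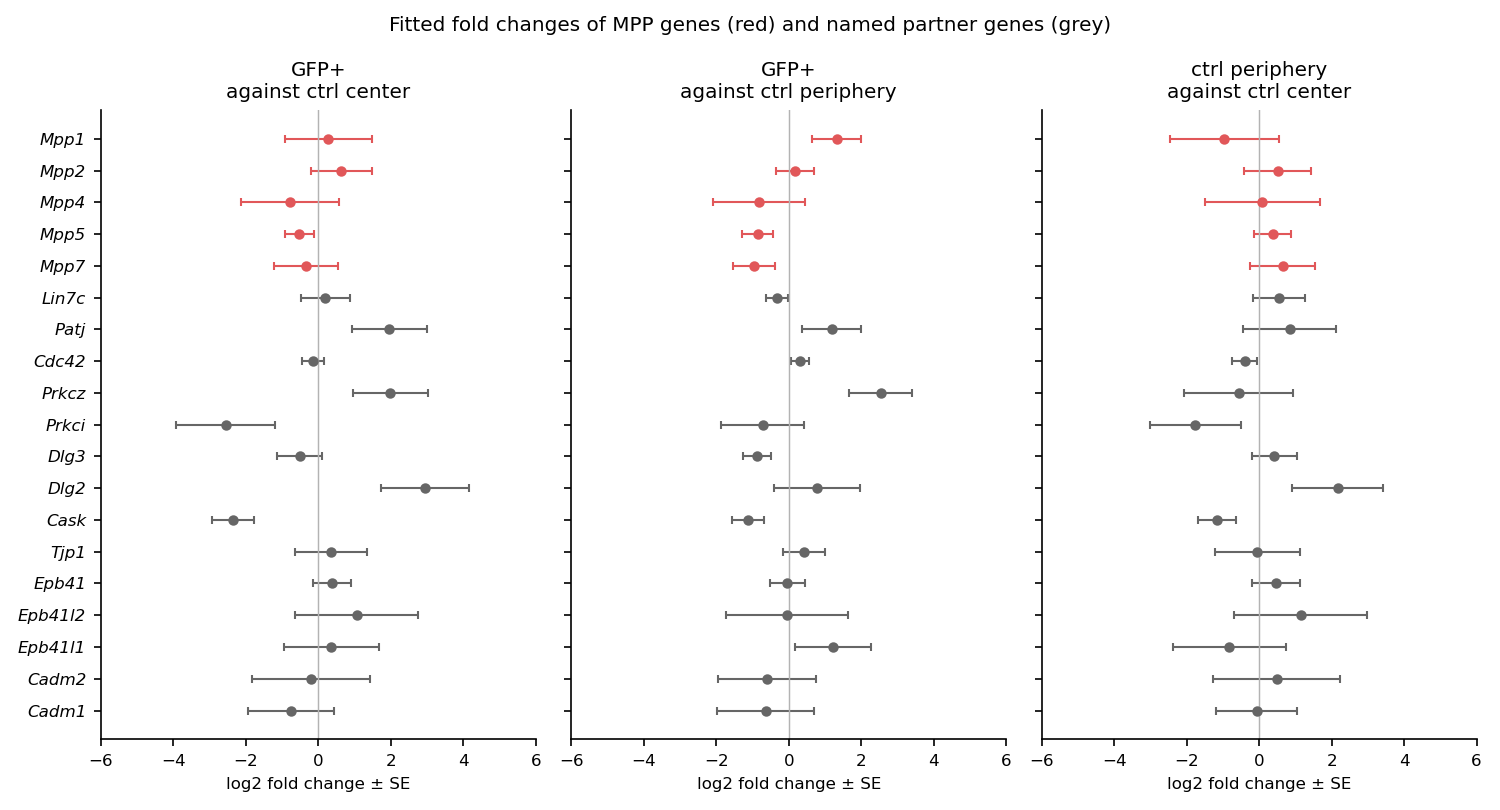
Log2 fold change ± SE from edgeR for the 5 tested MPP genes (red) and the named partner genes (grey), 1 panel per comparison. Each red interval lies within 3 log2 units of 0, and Cask is the grey point whose SE of 0.58 is small beside its log2 fold change of -2.35 in GFP+ against ctrl center.

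Per kilobase of transcript, the order of mean levels in GFP+ was Mpp1 (12.1 ± 3.72 CPM per kb, SD, n = 6), Mpp5 (11.8 ± 3.11), Mpp2 (8.18 ± 5.34), Mpp3 (4.65 ± 3.89), Mpp7 (3.77 ± 1.89), Mpp4 (2.30 ± 2.15) and Mpp6 (0.204 ± 0.499). Each gene differed from the next by less than the larger SD of the pair. In ctrl periphery, Mpp5 came first at 21.5 ± 14.4 CPM per kb, followed by Mpp7 at 7.51 ± 3.70, and Mpp3 was the sixth at 1.14 ± 1.28. In ctrl center, Mpp5 was again first at 15.6 ± 6.02 CPM per kb, and Mpp3 was last. With merged exon lengths, Mpp5 was first in all 3 groups. Mpp3 thus made up 0.464% to 24.6% of the summed per-length MPP level in GFP+ libraries, 0% to 6.75% in ctrl periphery and 0% to 0.117% in ctrl center. It was the second of 7 in the GFP+ library of mouse 7 and the fourth in those of mice 1, 4 and 5.

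The partners of the MPP proteins were read in 6 lists of 42 genes in all. Of these, 32 passed the filter in GFP+ against ctrl center and 34 in each of the other comparisons. edgeR called 0 of them in each comparison. An unadjusted p under 0.05 was reached by 1 gene on the higher side and 1 on the lower in GFP+ against ctrl center, by 1 and 3 in GFP+ against ctrl periphery, and by 0 and 2 in ctrl periphery against ctrl center. Over all genes, the higher and lower counts were 199 and 340 of 9286, 278 and 286 of 10102, and 98 and 159 of 9535 in the same order. DESeq2 called 2 partners, both in GFP+ against ctrl center, where it called 1.54% of all genes. The median log2 fold changes of the partners that passed were -0.02, -0.04 and 0.11 in the same order.

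Cask is a scaffold with a calcium/calmodulin-dependent kinase domain in front of an MPP-like chain. Among the tested CASK and junctional scaffolds it had the lowest log2 fold change in GFP+ against ctrl center, and it had the highest mean CPM of that list. In GFP+, it was at 35.3, 23.5, 102, 88.9, 174 and 141 CPM in mice 1, 2, 3, 4, 5 and 7. In ctrl periphery, it was at 98.9, 218, 176, 346 and 191 CPM in mice 1, 2, 4, 5 and 7, and in ctrl center at 197, 116, 349, 1187, 242 and 475 CPM in mice 1, 2, 4, 5, 6 and 7. Cask was lower in the GFP+ pool than in the ctrl center pool of the same mouse in 5 of 5 mice, and lower than in the ctrl periphery pool in 5 of 5. The ranges of GFP+ and ctrl center overlapped over all mice, but were separate among mice 1 to 3 and among mice 4 to 7. Such directions were not particular to Cask. Against ctrl center, Crb3, Pard6a, Epb41l1 and Dlg2 were higher in GFP+ in 5 of 5 mice, and Magi1 was lower in 5 of 5. Against ctrl periphery, Prkcz and Crb3 were higher in GFP+ in 5 of 5 mice, and Lin7c and Llgl1 lower in 5 of 5. How many of all genes had 1 direction in 5 of 5 mice, or were so separated within each run, was not counted.

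The log2 fold change of Cask in GFP+ against ctrl center was -2.35 (SE 0.58), with an adjusted p of 0.0787 by edgeR's quasi-likelihood test, short of the limit. With the mouse as a block, since both pools carry the same mouse label, it fell by 2.34 (SE 0.32) with an adjusted p of 0.00235, and it was the 1 partner called in a fit that called 0.603% of all genes. Over all the settings tried, the adjusted p of Cask ran from 0.00235 to 0.256. Without the ctrl center library of mouse 5, the log2 fold change was -1.60 (adjusted p = 0.256), and with the block -2.16 (adjusted p = 0.0254), again over the limit of 0.01. Against ctrl periphery, the log2 fold change was -1.13 (SE 0.44, adjusted p = 0.751). The mitochondrial share was also lower in GFP+ than in ctrl center, and highest in that same library of mouse 5; its part in the Cask difference was not tested.

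Among the other CASK and junctional scaffolds, DESeq2 called Magi1 lower in GFP+ than in ctrl center (adjusted p = 0.00355), but it did not pass the edgeR filter there. Magi1 had 432 and 215 counts in the ctrl center libraries of mice 5 and 7 and at most 69 in any other library. The call was lost without the ctrl center library of mouse 5 (adjusted p = 0.0689) and without GFP+ mice 1, 3 or 5 (0.0110 to 0.0168), and without ctrl center mouse 7 DESeq2 gave no adjusted p. Tjp1, the tight junction protein ZO-1, had the highest log2 fold change of that list at 0.34 (SE 1.00, adjusted p = 1.00 in edgeR).

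Dlg2, of the Scribble module, had the largest log2 fold change of that list at 2.95 (SE 1.21) in GFP+ against ctrl center, with an adjusted p of 0.675 by edgeR's quasi-likelihood test and 0.00994 by DESeq2. That DESeq2 call held without GFP+ mouse 2 or ctrl center mouse 4 and was lost without any of the other 10 libraries (adjusted p = 0.0131 to 0.0544). It had 68, 37, 205, 85, 115 and 455 counts in the GFP+ libraries of mice 1, 2, 3, 4, 5 and 7, and 2 to 29 in ctrl center. The CPM ranges of 1.76 to 21.7 and 0.150 to 2.89 overlapped over all mice, but as for Cask were separate among mice 1 to 3 and among mice 4 to 7. Dlg3, the gene of that module with the highest mean CPM, was at 47.0 ± 19.4 CPM (SD, n = 6) in GFP+, 88.8 ± 43.5 CPM (n = 5) in ctrl periphery and 62.6 ± 48.2 CPM (n = 6) in ctrl center.

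In the PAR complex, Prkcz, an atypical protein kinase C, had log2 fold changes of 1.98 (SE 1.03, adjusted p = 0.961) in GFP+ against ctrl center and 2.54 (SE 0.87, adjusted p = 0.681) against ctrl periphery by edgeR. It was at 10.9 to 88.4 CPM in GFP+, 0.0989 to 16.2 CPM in ctrl periphery and 0.185 to 20.4 CPM in ctrl center. Its relative Prkci had the opposite sign at -2.56 (SE 1.35, adjusted p = 0.967 in edgeR) against ctrl center, which rested on the ctrl center library of mouse 5 at 194 CPM, as the other 5 lay at 0.222 to 14.8 CPM. Without that library it was -0.049 (SE 1.39, adjusted p = 1.00 in edgeR). Cdc42, the small GTPase that binds Par6, was the highest of this list at 415 ± 99.1 CPM (SD, n = 6) in GFP+ and 432 ± 205 CPM (n = 6) in ctrl center.

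In the Crumbs complex, 4 of 7 genes passed the filter, and all 4 had positive log2 fold changes in GFP+ against ctrl center, with a median of 1.16 and none at an unadjusted p under 0.05. In GFP+ against ctrl periphery, 2 were positive and 2 negative (median 0.29), and in ctrl periphery against ctrl center all 4 were positive again (median 0.81). Patj, the direct partner of Mpp5, was the highest at 1.96 (SE 1.04, adjusted p = 0.969 in edgeR). Patj had 848, 2185, 518, 430, 48 and 298 counts in GFP+ and 2 to 228 in ctrl center. Lin7c, the highest of the list, was at 70.9 ± 29.4 CPM (SD, n = 6) in GFP+ and 59.1 ± 46.2 CPM (n = 6) in ctrl center. Crb1 and Lin7a had at most 4 counts in any library, so the Crumbs genes read in these pools were Crb2 and Crb3.

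**Figure D4:**
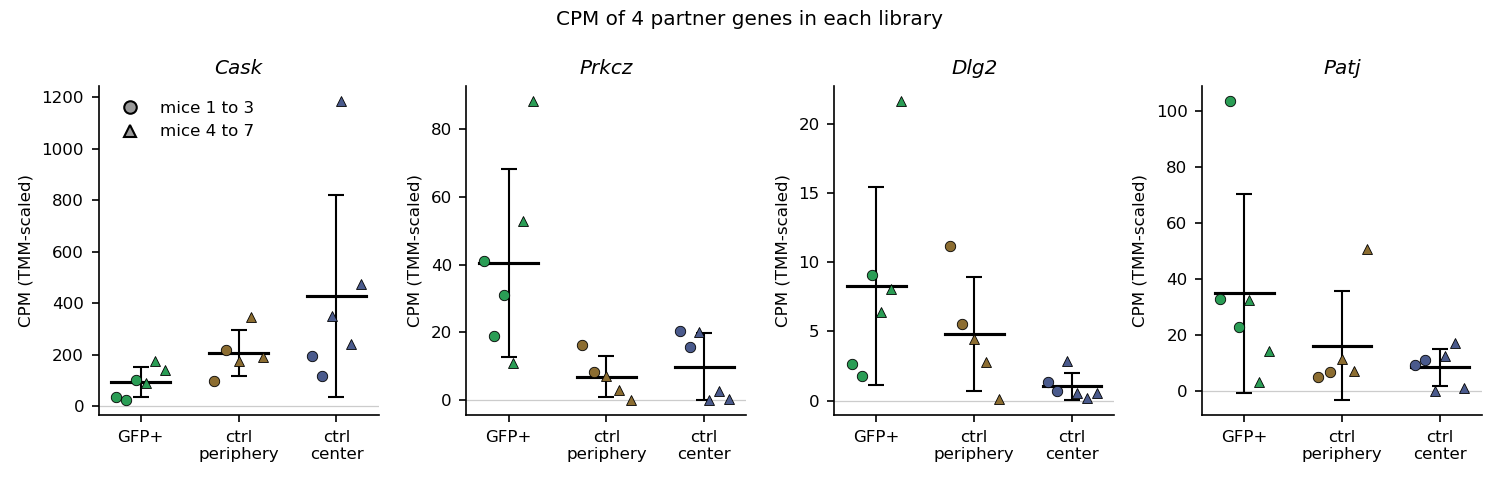
CPM of Cask, Prkcz, Dlg2 and Patj by group, with 1 point per library (circles mice 1 to 3, triangles mice 4 to 7) and a bar for the mean ± SD. Cask lies at 23.5 to 174 CPM in GFP+ and 116 to 1187 CPM in ctrl center, and the single point at 1187 CPM is mouse 5.

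For the protein 4.1 family, the partners of Mpp1, all 5 genes that passed the filter had positive log2 fold changes in GFP+ against ctrl center, from 0.36 (Epb41l1) to 1.06 (Epb41l2), with none at an unadjusted p under 0.05. In GFP+ against ctrl periphery, 3 were positive and 4 negative, with a median of -0.04. The lowest was Epb41l3 at -5.26 (SE 1.94, adjusted p = 0.708 in edgeR), which had 0 counts in 4 of 6 GFP+ libraries and 1 to 1160 in ctrl periphery. Epb41, protein 4.1 itself, was at 53.3 ± 23.6 CPM (SD, n = 6) in GFP+ and 37.7 ± 17.2 CPM (n = 6) in ctrl center. Gypc, the glycophorin C of the red cell complex, had at most 1 count in any library. Of the 4 nectin-like molecules, 3 passed, with log2 fold changes of -0.75 (Cadm1) to -0.21 (Cadm2) and none at an unadjusted p under 0.05. Cadm1, which Mpp3 and Mpp2 can bind, was at 1.57 ± 3.07 CPM (SD, n = 6) in GFP+ and 2.49 ± 2.02 CPM (n = 6) in ctrl center. The GFP+ mean rested on mouse 2 at 7.83 CPM, as the other 5 lay at 0.178 to 0.634 CPM with a mean of 0.313 ± 0.189 CPM. Without that library the log2 fold change of Cadm1 was -3.08 (SE 1.09, adjusted p = 0.628 in edgeR), and with the mouse as a block -2.13 (SE 1.45).

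Over the 17 libraries, the 5 genes whose log2(CPM + 1) followed Mpp3 most closely among 10660 that passed a filter on low counts were Rgs9 (Pearson r = 0.860, Spearman rho = 0.822), Gpr89 (0.822 and 0.792), Il17re (0.815 and 0.854), Jph1 (0.815 and 0.749) and Ell2 (0.814 and 0.698). They were picked for their r, so they carry no test, and the libraries share 7 mouse labels and the group differences. Without the 2 libraries farthest from the median of Mpp3, GFP+ mice 4 and 7, r was 0.822, 0.815, 0.759, 0.815 and 0.749. Within mice 1 to 3 (7 libraries) it was 0.845, 0.677, 0.609, 0.657 and 0.474, and within mice 4 to 7 (10 libraries) 0.880, 0.913, 0.899, 0.895 and 0.968.

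Rgs9, a regulator of G-protein signalling, was at 109 to 223 CPM in GFP+, 98.7 to 160 CPM in ctrl periphery and 76.3 to 113 CPM in ctrl center, and so was well read where Mpp3 was not. Il17re, a subunit of interleukin-17 receptors, was at 82.3 to 131 CPM in GFP+, 27.2 to 80.7 CPM in ctrl periphery and 18.0 to 62.2 CPM in ctrl center. Jph1, a junctophilin, was the one closest to the low end of Mpp3, with at most 4 counts in ctrl center. Jph1 had similar means in GFP+ (6.45 CPM, range 0 to 12.2) and ctrl periphery (6.22 CPM, range 0 to 15.6). The means of Mpp3 were 19.2 and 4.71 CPM over all mice, but 5.52 and 6.59 CPM among mice 1 to 3. No other MPP gene came near Mpp3 by this measure. Mpp1 had r = 0.339 (rank 2084 of 10659), Mpp2 0.333, Mpp7 -0.09, Mpp5 -0.26 and Mpp4 -0.32.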

How the data were processed

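The authors deposited 1 table of estimated counts per gene, already whole numbers and not normalized, for 17 SMART-Seq libraries without molecular identifiers. The submitters' processing notes name fastp, Salmon and GRCm38.p6. Their versions and roles, the annotation, the summing of transcripts to genes and the use of strand are not given in the sources used here, so reads of overlapping genes cannot be traced. All 17 columns matched 1 sample each, with 0 left unused. Groups and mouse numbers came from the labels.

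Each pair of groups was fitted alone with edgeR 4.0.16 (R 4.3.3; filterByExpr, TMM, quasi-likelihood test), and p-values were adjusted by Benjamini-Hochberg over all genes tested. A call needed a log2 fold change past 1 in either direction and an adjusted p under 0.01. The SE of an edgeR log2 fold change was its absolute value over the square root of the quasi-likelihood F. For Mpp3 it is given as a spread only, and no test is read from it. CPM used TMM factors over the 17 libraries. Libraries held 9896118 to 22467079 counts, and the floor was 3 counts. Gene positions and lengths came from GENCODE M21, the same build. The procedure was tested on simulated data. DESeq2 1.42.0, other scalings, filters and designs, and leaving out each library were tried.

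The labels pair libraries by the number of the mouse (for mouse 1, by a pair of numbers), although their deviations from the group means correlated at only -0.0195 to 0.0922 over 15 pairs. No 2 libraries were copies of each other (highest r of log2 counts 0.924).

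The MPP genes, partner lists and marker lists were chosen with earlier results of these data known. Named in the text are all MPP genes; of each partner list, any called gene, the gene with the highest mean CPM and those with the highest and lowest log2 fold change in GFP+ against ctrl center; and the 5 genes most correlated with Mpp3. Magi1, Pard6a, Llgl1, Prkcz against ctrl periphery, Epb41l3, the marker genes, Crb1, Crb2, Crb3, Lin7a, Gypc and the neighbours of Mpp3 were named after their values were seen.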

Additional observations from a re-analysis of the deposited data

Results flagged for a closer look

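In 21 sets of libraries (7 MPP genes in 3 groups), 6 had 1 library far from the others by Dixon's test at the 95% level, where chance alone gives about 1 in 20. In 3 of the 6 every other library had 0 counts, where any count stands apart whatever its size, so that rate does not apply to them. Mpp1 was at 102 CPM (553 counts) in the ctrl center library of mouse 5, against 0 to 16.5 CPM in the other 5. Mpp4 was at 50.2 CPM (632 counts) in the ctrl periphery library of mouse 5, against 0 to 11.0 CPM in the other 4. Mpp6 was at 4.31 CPM (111 counts) in the GFP+ library of mouse 1, and the other 5 GFP+ libraries had 0. The remaining 3 lay at or under the floor of 3 counts: Mpp6 at 0.159 CPM (2 counts) in ctrl periphery mouse 5 and at 0.554 CPM (3 counts) in ctrl center mouse 5, and Mpp3 at 0.168 CPM (2 counts) in ctrl center mouse 1.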

How the results depend on the processing

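No MPP gene other than Mpp3 was called under any alternative, and 287 of 305 alternative log2 fold changes of these genes kept their sign. The number of all genes called moved far more. In GFP+ against ctrl center it was 4, and became 196 with DESeq2, 56 with the mouse as a replicate block, 8 at an adjusted p under 0.05 with no limit on the fold, 2 with a filter of 10 counts in 5 libraries, 1 with a term for the run of animal numbers, and 1 to 3 when 1 library was left out. In GFP+ against ctrl periphery it was 4, and became 67 with DESeq2, 0 with all 3 groups in 1 fit, 0 with the mouse block, 1 with that term for the run, and 0 to 5 when 1 library was left out. In ctrl periphery against ctrl center it was 0, and 29 with DESeq2. Partner genes called in GFP+ against ctrl center were 0, 2 with DESeq2 and 1 with the block. The causes were not tested.

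Leaving out 1 library moved the fitted log2 fold change of Mpp3 in GFP+ against ctrl center (8.90) between 8.57 and 11.24, the latter without ctrl center mouse 1, which holds the only 2 counts of that group; such fitted values depend on the prior count and are no bound. Mpp3 did not pass the filter in ctrl periphery against ctrl center, so no fitted value was compared there. In GFP+ against ctrl center, the leave-one-out range was -1.29 to 0.032 for Mpp4 and -0.61 to 0.090 for Mpp7, with the sign turned without ctrl center mouse 5. In GFP+ against ctrl periphery, it was -0.22 to 0.37 for Mpp2 and -1.37 to 0.69 for Mpp4, turned without GFP+ mouse 5 and ctrl periphery mouse 5. With the mouse as a replicate block, Mpp2 was -0.16 and Mpp4 0.82 there. In ctrl periphery against ctrl center, leave-one-out ranges were -1.82 to 0.58 for Mpp1, -1.40 to 0.86 for Mpp4 and -0.070 to 0.64 for Mpp5. The replicate block gave 0.12 for Mpp1, -1.28 for Mpp4 and -0.015 for Mpp5, and Mpp4 was also -0.0064 with DESeq2, -0.027 with median-of-ratios factors and -0.0025 with that term for the run. The block changed no other call of a named gene than those of Cask and Vim. The alternatives for Cask, Vim and the named partners were tried after seeing the data.

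Of the 5 genes most like Mpp3, 3 stayed among the first 5 with a pseudocount of 0.1, 2 with 10, 1 by Spearman's rho, and 1 to 5 when 1 library was left out, so the list depends on these choices. Depth limits what can be said of Mpp3 in ctrl center and of Mpp6 to levels above 3 counts a library, and the 5 or 6 pools a group limit the rest.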
